A study of Mus musculus with 16 samples.

Results

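The Hox genes are the homeodomain transcription factors of the Hoxa, Hoxb, Hoxc and Hoxd clusters. Members were taken by symbol, as every gene of the processed table named Hox with a cluster letter from a to d and a paralog number. This held for 37 of the 18167 genes, with 10 in Hoxa, 10 in Hoxb, 9 in Hoxc and 8 in Hoxd. The reference annotation places 39 such genes, and Hoxa13 and Hoxd12 are not analysed here.

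Spinal cord RNA of 16 male mice was sequenced, from strains that carry human profilin 1 either with the G118V substitution linked to amyotrophic lateral sclerosis or as the wild type. Young wild-type (WY, n = 3) and old wild-type (WO, n = 5) mice were C57BL/6N with Tg(Prnp-PFN1)850Kiaei/J, and young mutant (MY, n = 3) and old mutant (MO, n = 5) mice C57BL/6N with Tg(Prnp-PFN1*G118V)838Kiaei/J. Every young mouse was 50 days old, and the mutants are presymptomatic at that age. WO1, WO2 and WO3 were 190 days old, and WO4 and WO5 were 294 days old. The MO mice, at end stage of disease, were 198 (MO1), 190 (MO2), 245 (MO3), 224 (MO4) and 175 (MO5) days old. The mouse prion protein promoter drives the transgene in both strains, and no group lacks a transgene. The labels put WO4, WO5, MO4 and MO5 in batch 2 and all other mice in batch 1, so batch 2 holds old mice alone. They name the tissue as spinal cord and give no cord level for any mouse. A log2 level here is log2(1 + FPKM), where FPKM counts fragments scaled by transcript length and by library size, after the authors' correction for batch. A log2 difference is the difference between group means of these levels.

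A few libraries stood apart from their groups. MO5 went against its label as male: its log2 level of Xist, the RNA of the inactive X chromosome, was 3.21, while no other mouse was above 0.37. The log2 level of the Y-linked gene Ddx3y was 1.95 in MO5 and at least 4.06 in every other mouse. WO4 had a log2 level of Mbp, the gene of myelin basic protein, of 5.36, against at least 12.16 in every other mouse. In WY1 the log2 level of Slc6a5, the glycine transporter of inhibitory neurons, was 4.02, and it was at least 4.81 in every other mouse. Where leaving out one of these mice changes a call among the Hox genes, the call or the value without it is given.

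The tissue was checked against markers of cord and of levels above it. All 8 motor neuron markers and all 7 neuron markers were in the table, and each had a mean log2 level of at least 0.5. Of 16 markers of brain and hindbrain, levels above the cord, 10 were in the table, and 7 of these had a mean log2 level under 0.5 (Emx1, Tbr1, Tph2, Slc6a4, Fev, Dbh and Slc6a3). The other 3 were Neurod6 at a mean log2 level of 1.55, En2 at 1.03 and Th, the most abundant, at 1.82, and the summed FPKM of all 10 was between 5.09 and 7.65 in each mouse. The dorsal root ganglion list had 7 of its 8 markers in the table, 6 of them under 0.5, and its summed FPKM was between 1.65 and 2.73.

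Hox genes lie in each cluster in the order in which they are used along the body, with low paralog numbers at the 3′ end and high ones at the 5′ end. In the cord, low numbers mark hindbrain and neck levels, middle numbers the brachial and thoracic levels, and the highest numbers the lumbar, sacral and tail levels. There they set the identity of motor neurons and interneurons, and part of this positional code is kept in adult cells. In the GENCODE annotation of GRCm38, the mm10 build, Hoxa spans 105 kb of chromosome 6, Hoxb 174 kb of chromosome 11, Hoxc 116 kb of chromosome 15 and Hoxd 96.8 kb of chromosome 2. Of the 37 members, 23 overlap another gene, 15 of them on the same strand and 14 on the other. The sources used here do not say whether strand was used in counting, so a level of an overlapping gene can hold reads of its neighbour.

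Members of every paralog number from 1 to 13 were in the table. A mean log2 level over 16 mice of at least 1 was reached by 30 of the 37 members. All 22 members of paralogs 4 to 10 had a mean log2 level between 1.94 (Hoxc5) and 5.75 (Hoxb8). Of the members, 9 had a mean log2 level of at least 4: Hoxa5, Hoxb5, Hoxb6, Hoxb7, Hoxb8, Hoxb9, Hoxc8, Hoxc10 and Hoxd8. At the other end, 4 had a mean log2 level under 0.5, namely Hoxb1 at 0.04, Hoxb13 at 0.46, Hoxc13 at 0.48 and Hoxd13 at 0.08. In each cluster the highest mean was at paralog 5 or 8.

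**Figure D1:**
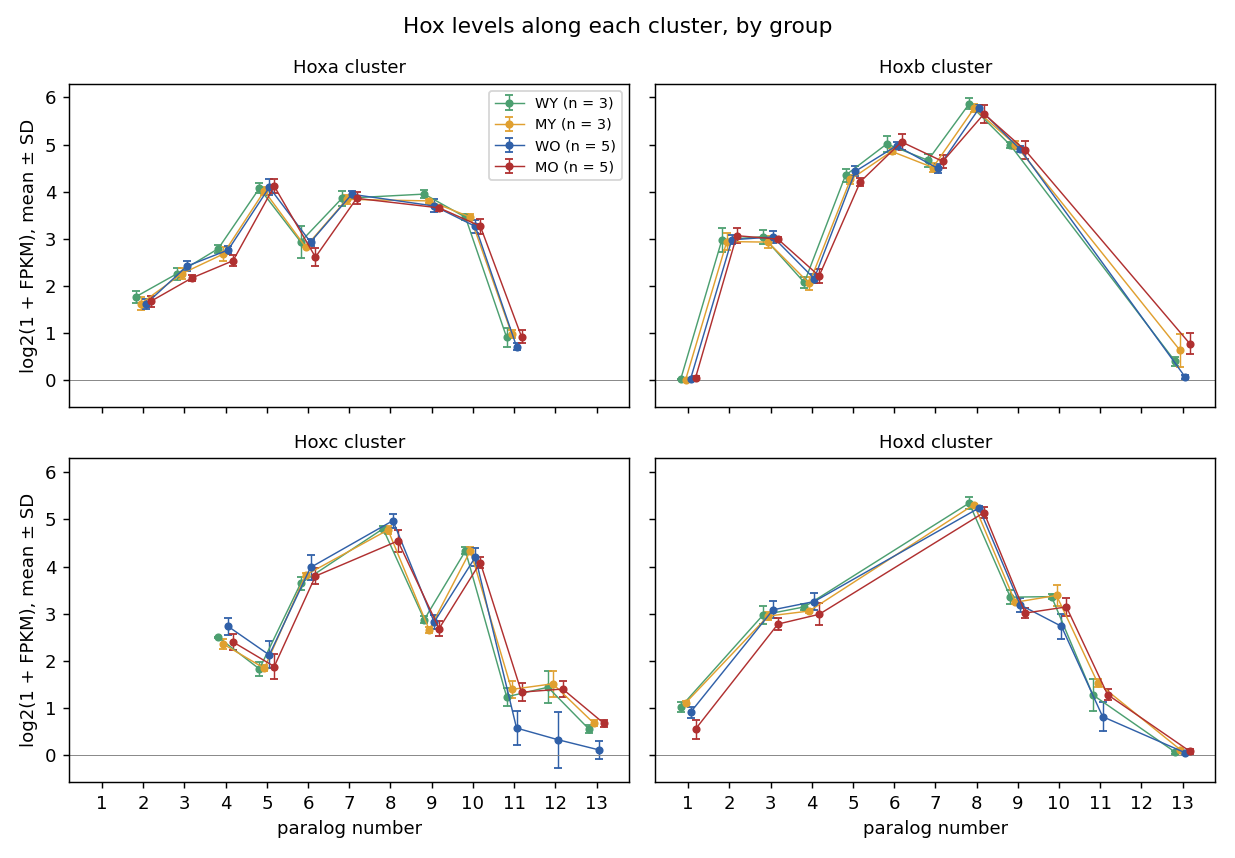
Mean log2(1 + FPKM) ± SD of 36 of the 37 Hox genes (vertical axis) by paralog number (horizontal axis), 1 panel per cluster, in WY (n = 3), MY (n = 3), WO (n = 5) and MO (n = 5). The highest means within each cluster are those of Hoxa5, Hoxb8, Hoxc8 and Hoxd8. WO lies below the other groups at Hoxb13, Hoxc11, Hoxc12 and Hoxc13.

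The most abundant member of each cluster was well expressed in every mouse. Hoxa5, which works at neck and brachial levels, had log2 levels of 4.20, 3.98 and 4.05 in WY, 3.95, 4.11 and 4.00 in MY, 4.21, 4.31, 4.10, 3.95 and 3.90 in WO, and 3.94, 4.21, 4.20, 4.27 and 3.97 in MO. Hoxb8, a gene of the trunk, had log2 levels of 5.95, 5.73 and 5.91 in WY, 5.68, 5.79 and 5.84 in MY, 5.81, 5.83, 5.64, 5.79 and 5.77 in WO, and 5.44, 5.54, 5.79, 5.89 and 5.59 in MO. For both genes the 4 groups overlapped. Hoxc8, a gene of the brachial and thoracic cord, had log2 levels of 4.76, 4.85 and 4.80 in WY, 4.85, 4.67 and 4.81 in MY, 5.14, 4.96, 5.12, 4.86 and 4.80 in WO, and 4.31, 4.55, 4.61, 4.89 and 4.35 in MO. Among the old mice Hoxc8 was lower in 4 MO mice than in every WO mouse, and MO4 lay within the WO range. Hoxd8 had log2 levels of 5.48, 5.29 and 5.26 in WY, 5.33, 5.32 and 5.30 in MY, 5.24, 5.31, 5.26, 5.18 and 5.23 in WO, and 5.18, 5.13, 5.05, 5.34 and 5.03 in MO. Its groups overlapped.

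Old mutant and old wild-type mice were compared to ask whether the Hox profile of the cord differs at end stage. Hoxb13, Hoxc11 and Hoxc12, genes of the caudal end of the body axis, were higher in MO than in WO. These 3 of the 37 members passed both thresholds, an FDR of 0.05 or less and a change of 1.5-fold or more in either direction, all higher in MO. Without MO5 the same 3 genes passed. Over all genes 4.6% passed both, and 4.08% did so with higher levels in MO. At the FDR alone 15 members passed, where 27.9% of all genes did. Of these, 7 were higher in MO, against 15% of all genes, and each has a paralog number from 10 to 13: Hoxa11, Hoxb13, Hoxc11, Hoxc12, Hoxc13, Hoxd10 and Hoxd11. The other 8 were lower in MO, against 12.9% of all genes, and have paralog numbers from 1 to 8: Hoxa3, Hoxa4, Hoxa6, Hoxb5, Hoxc4, Hoxc8, Hoxd1 and Hoxd3. Shares near those of all genes are not a result about the members. The median log2 difference was -0.04 over the members and 0.00035 over all genes. The members that passed at the FDR alone are named here after their values were seen.

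Hoxb13, the most caudal member of its cluster, lies at chr11:96194316-96197447 and overlaps no other gene. Its log2 levels were 0.42, 0.30 and 0.49 in WY, 0.31, 1.00 and 0.60 in MY, 0.05, 0.05, 0.11, 0.14 and 0.03 in WO, and 0.79, 0.39, 0.96, 0.81 and 0.91 in MO. All 5 WO mice were below every mouse of the other groups. WO1 and WO2 were tied at the lowest value of batch 1, so the SD of WO includes tied values near 0. The mean log2 level was 0.08 ± 0.04 (SD, n = 5) in WO and 0.77 ± 0.22 (SD, n = 5) in MO, a log2 difference of 0.70 (SE 0.09, FDR 0.000337). Within batch 1 the log2 difference was 0.65 (FDR 0.0265), and within batch 2, with 2 mice a group, 0.78 (FDR 0.00728).

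Hoxc11, which acts in lumbar and sacral patterning, lies at chr15:102954427-102957708. Its log2 levels were 1.04, 1.24 and 1.43 in WY, 1.37, 1.58 and 1.23 in MY, 0.19, 0.51, 0.59, 1.17 and 0.43 in WO, and 1.27, 1.5, 1.04, 1.39 and 1.48 in MO. WO4 alone among the WO mice reached the range of the other groups, and the other WO mice were below all of them. The mean log2 level was 0.58 ± 0.36 (SD, n = 5) in WO and 1.34 ± 0.19 (SD, n = 5) in MO, a log2 difference of 0.76 (SE 0.16, FDR 0.00552). The log2 difference was 0.84 (FDR 0.0132) within batch 1 and 0.64 within batch 2, where it did not pass (FDR 0.166). Without WO4 it was 0.91 on the log2 scale (FDR 0.000415).

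Hoxc12, the next gene toward the 5′ end, lies at chr15:102936757-102938609. Its log2 levels were 1.05, 1.62 and 1.66 in WY, 1.45, 1.28 and 1.81 in MY, 0.06, 0.06, 0.06, 1.39 and 0.09 in WO, and 1.29, 1.28, 1.67, 1.27 and 1.5 in MO. WO1, WO2 and WO3 were tied at the lowest value of batch 1, WO5 was close to it, and WO4 was within the MO range. The mean log2 level was 0.33 ± 0.59 (SD, n = 5) in WO and 1.40 ± 0.18 (SD, n = 5) in MO, a log2 difference of 1.07 (SE 0.24, FDR 0.00767). Within batch 1 the log2 difference was 1.36 (FDR 0.000759), and within batch 2, which pairs WO4 and WO5 with MO4 and MO5, it was 0.65 and did not pass (FDR 0.363). Without WO4 it was 1.34 on the log2 scale (FDR 7.74e-05). Neither Hoxc11 nor Hoxc12 overlaps another gene.

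Hoxc13, the last gene of the Hoxc cluster, lies at chr15:102921103-102928814 and overlaps no other gene. Its log2 levels were 0.58, 0.46 and 0.62 in WY, 0.60, 0.71 and 0.71 in MY, 0.02, 0.02, 0.02, 0.46 and 0.05 in WO, and 0.75, 0.57, 0.73, 0.64 and 0.68 in MO. Every WO mouse was below every MO mouse, and WO4 was again the highest of its group. As for Hoxc12, WO1, WO2 and WO3 were tied at the lowest value of batch 1. The log2 difference of 0.56 (SE 0.09, FDR 0.000759) passed the FDR and missed the fold change minimum. It reached that minimum without WO4, at 0.65 on the log2 scale (FDR 7.74e-05), without MO2, at 0.59 on the log2 scale (FDR 0.0017), and within batch 1, at 0.67 on the log2 scale (FDR 0.00149). Within batch 2 the log2 difference was 0.40 (FDR 0.148). At these low levels the size of a log2 difference moved with the pseudocount: at 0.1 in place of 1 it was 2.38 for Hoxb13 (FDR 0.00011), 1.59 for Hoxc11 (FDR 0.0118), 2.86 for Hoxc12 (FDR 0.0085) and 2.15 for Hoxc13 (FDR 0.00197). Groups did not overlap between WO and MO for 4 members, Hoxb13 and Hoxc13 higher in MO and Hoxa3 and Hoxa6 lower, where 19.9% of all genes did not overlap.

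**Figure D2:**
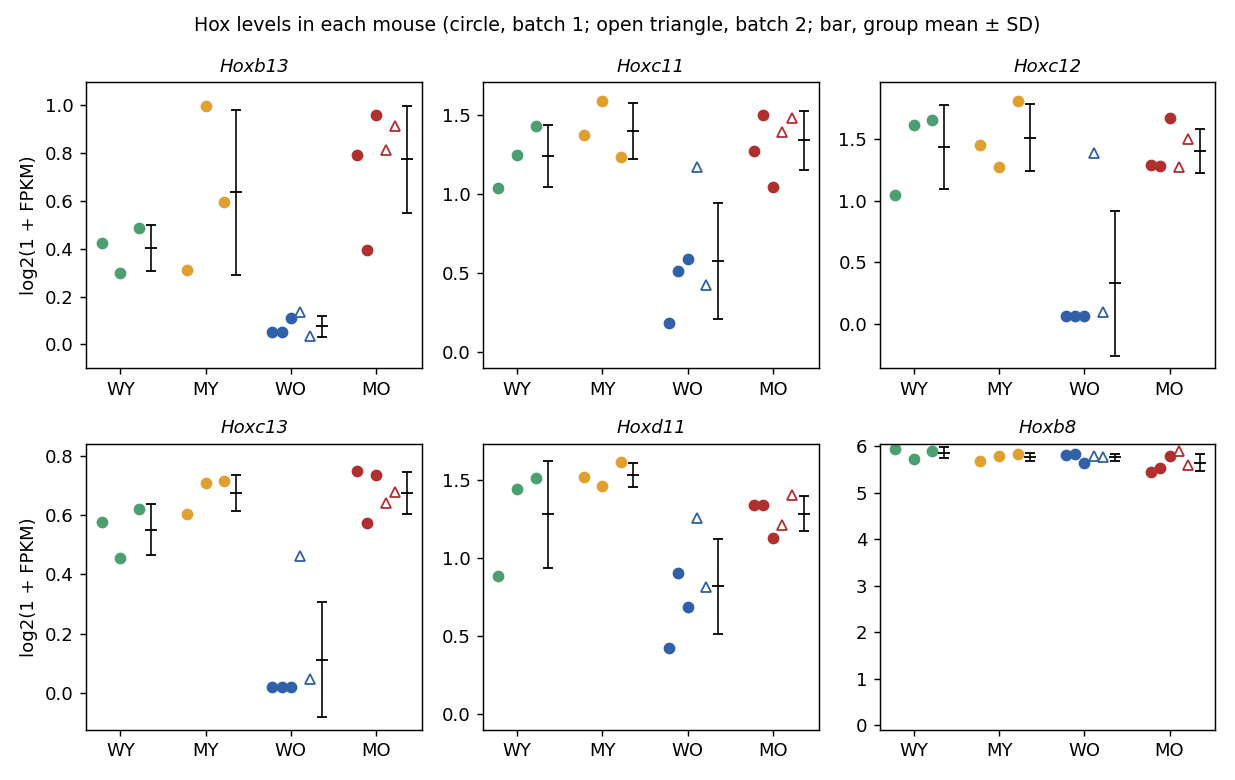
Log2(1 + FPKM) (vertical axis) of 5 caudal Hox genes and of Hoxb8 in each mouse of WY, MY, WO and MO (horizontal axis), as filled circles for batch 1 and open triangles for batch 2, with the group mean ± SD as a bar. For Hoxc12 WO1, WO2, WO3 and WO5 lie at or below 0.09 and WO4 at 1.39, while Hoxb8 lies between 5.44 and 5.95 in every mouse.

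The caudal genes of the Hoxa and Hoxd clusters differed less. Hoxd10, a gene of lumbar motor neurons, had log2 levels of 3.30, 3.41 and 3.37 in WY, 3.64, 3.27 and 3.25 in MY, 2.45, 2.76, 2.52, 3.11 and 2.83 in WO, and 3.38, 2.99, 2.93, 3.09 and 3.33 in MO. Its neighbour Hoxd11 had log2 levels of 0.89, 1.44 and 1.51 in WY, 1.52, 1.46 and 1.61 in MY, 0.42, 0.91, 0.69, 1.26 and 0.82 in WO, and 1.34, 1.34, 1.13, 1.21 and 1.40 in MO. WO1, WO2, WO3 and WO5 were below every MO mouse for both genes, and WO4 was within the MO range. Hoxa11, the most caudal Hoxa member of the table, had log2 levels of 0.69, 0.97 and 1.08 in WY, 1.09, 0.93 and 0.96 in MY, 0.71, 0.65, 0.66, 0.79 and 0.78 in WO, and 0.94, 0.93, 0.78, 1.14 and 0.86 in MO. Its WO and MO ranges met at MO3. The log2 difference between MO and WO was 0.41 for Hoxd10 (FDR 0.0406), 0.47 for Hoxd11 (FDR 0.0213) and 0.21 for Hoxa11 (FDR 0.0307). Within batch 2 the FDR was 0.293 for Hoxd10, 0.333 for Hoxd11 and 0.252 for Hoxa11, and within batch 1 0.0498, 0.0271 and 0.0758. Under quantile normalization the FDR was 0.204 for Hoxa11 and 0.0556 for Hoxd11, and without MO5 it was 0.0878 for Hoxd10. Hoxd13, at the end of the Hoxd cluster, had log2 levels of 0.07, 0.03 and 0.10 in WY, 0.14, 0.10 and 0.11 in MY, 0.05, 0.01, 0.04, 0.13 and 0.03 in WO, and 0.04, 0.04, 0.17, 0.04 and 0.12 in MO. It was near 0 in every mouse, with overlapping old groups. The log2 difference between MO and WO passed no threshold for Hoxd13 (0.03, FDR 0.663), Hoxa10 (0.00, FDR 0.979) or Hoxc10 (-0.11, FDR 0.398).

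As a description of the clusters without a test, the mean log2 level over the 10 members of paralogs 10 to 13 was 1.57, 1.74 and 1.80 in WY and 1.80, 1.81 and 1.81 in MY. It was 1.11, 1.24, 1.2, 1.61 and 1.29 in WO, and 1.71, 1.62, 1.67, 1.68 and 1.81 in MO. WO4 and WY1 lay side by side, and the other WO mice were below all 12 of the remaining mice. The mean log2 level over the 11 members of paralogs 5 to 8 was 4.22 ± 0.07 (SD, n = 3) in WY, 4.17 ± 0.03 (SD, n = 3) in MY, 4.27 ± 0.08 (SD, n = 5) in WO and 4.14 ± 0.13 (SD, n = 5) in MO. For the 4 members of paralog 9 it was 3.79 ± 0.07 in WY, 3.68 ± 0.05 in MY, 3.65 ± 0.08 in WO and 3.56 ± 0.08 in MO, each ± SD over the mice of the group. Of these 3 stretches, the WO mean was below those of all other groups at paralogs 10 to 13 alone.

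**Figure D3:**
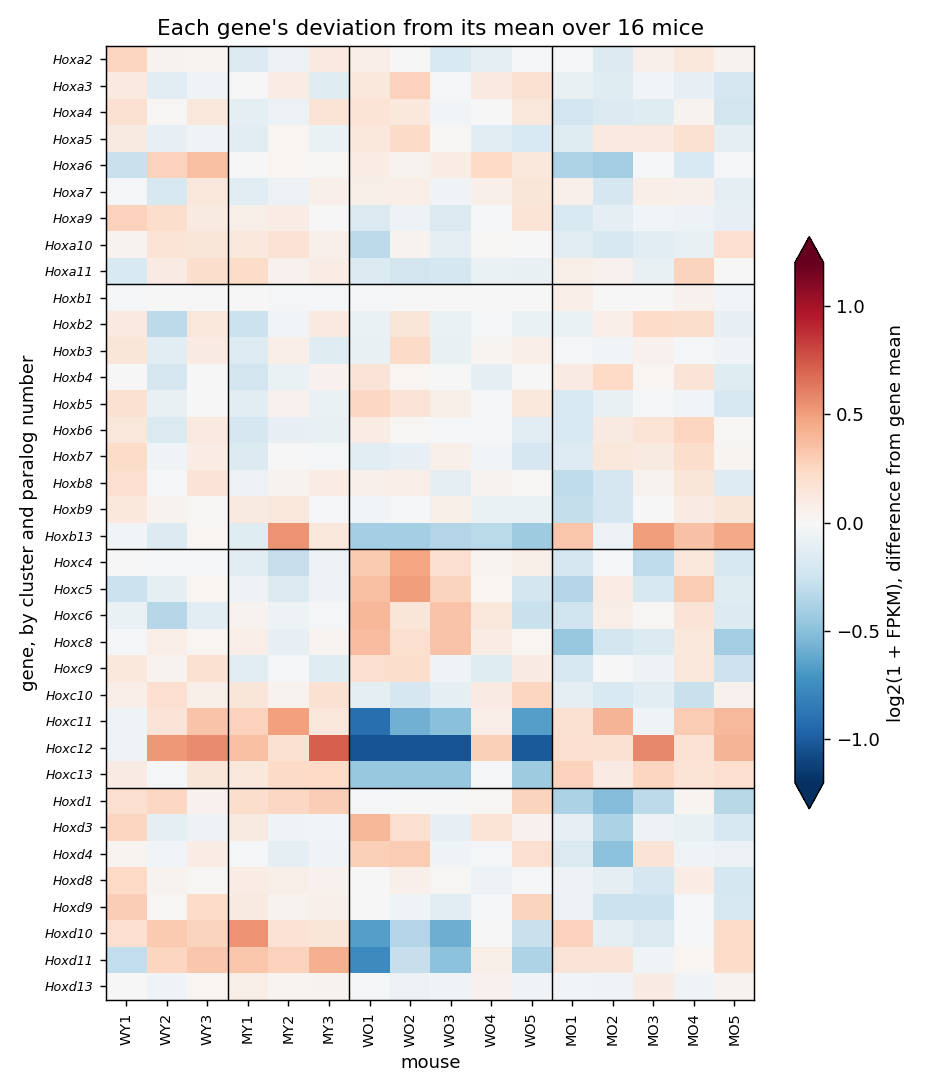
Difference in log2(1 + FPKM) of 36 of the 37 Hox genes in each mouse from the gene's mean over 16 mice (colour), with genes by cluster and paralog number on the vertical axis and mice by group on the horizontal axis. Blue fields at Hoxb13, Hoxc11, Hoxc12, Hoxc13, Hoxd10 and Hoxd11 mark WO1, WO2, WO3 and WO5. WO4 also lies below the gene's mean at Hoxb13 (0.14 against 0.46) and just below it at Hoxc13. Before the mean is taken out, the log2 level of Hoxc12 runs from 0.06 to 1.81.

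In whole tissue, fewer cells of the caudal cord in a sample and less RNA per cell cannot be told apart, and the labels give no length or level of the cord taken. Motor neuron markers had a summed FPKM of 174, 145, 147, 147 and 157 in WO and of 109, 115, 93.4, 126.5 and 106 in MO, with Prph the most abundant. Of these 8 markers 6 were lower in MO at the FDR alone, and 3 passed both thresholds and fell, Chodl by a log2 difference of -1.74, Mmp9 by -0.70 and Chat by -0.67. Microglia markers had a summed FPKM of 117.9, 134, 143, 92.3 and 83.7 in WO and of 369, 615, 729, 389 and 419 in MO, with Tyrobp the most abundant. Of these 6 markers 5 rose, Trem2 by a log2 difference of 2.73, Tyrobp by 2.69 and Aif1 by 1.75. Astrocyte markers had a summed FPKM between 934 and 1162 in WO and between 2348 and 3232 in MO, with all 5 higher in MO at the FDR alone, and 3 of them passed both thresholds and rose, Gfap, the most abundant, by a log2 difference of 1.60, Aqp4 by 0.83 and Aldh1l1 by 0.69. Neuron markers had a summed FPKM between 1993 and 2194 in WO and between 1560 and 1760 in MO, with Snap25 the most abundant. Of these 7 markers 4 were lower in MO at the FDR alone, and Slc6a5 passed both thresholds and fell by 0.78 on the log2 scale. The young mice, with Hoxc12 log2 levels between 1.05 and 1.81, had microglia sums between 103 and 120. WO4, with a Hoxc12 log2 level of 1.39, had a microglia sum of 92.3 and a motor neuron sum of 147. The part of these cell types in the Hox differences was not tested.

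Few members of the other marker lists passed both thresholds between WO and MO. Of the oligodendrocyte markers Mbp was the most abundant. Of the 5 ependymal markers the most abundant, Rarres2, rose by a log2 difference of 0.63. Of the 7 cartilage and bone markers the most abundant, Sox9, rose by a log2 difference of 0.69, and Acan fell by 0.60 on the log2 scale. Both are also genes of neural tissue. None of the 7 dorsal horn, 7 Schwann cell, 7 dorsal root ganglion, 6 fibroblast, 7 skeletal muscle, 4 blood, 10 brain and hindbrain or 5 sex markers in the table passed both thresholds by limma. An unadjusted p under 0.05 held for 4, 2, 3, 0, 2, 1, 4 and 0 of them, in the same order. Of the Schwann cell markers Prx and Pmp2 had a mean log2 level under 0.5, and so did 5 of the muscle markers.

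The 8 members lower in MO than in WO at the FDR alone had log2 differences from -0.43 to -0.22. The one furthest down was Hoxc8, at -0.43 on the log2 scale (SE 0.11, FDR 0.0151), and within batch 2 at -0.21 (FDR 0.501). Hoxa3, a gene of hindbrain and neck levels, differed by -0.25 on the log2 scale (FDR 0.0071) and overlaps other genes of its cluster. Hoxd1, which in mice acts in pain-sensing neurons, had log2 levels of 1.05, 1.10 and 0.91 in WY, 1.07, 1.11 and 1.15 in MY, 0.83, 0.86, 0.86, 0.87 and 1.12 in WO, and 0.48, 0.34, 0.54, 0.89 and 0.53 in MO. All MO mice but MO4 were below every mouse of the other groups, and MO4 was within the WO range. The log2 difference of Hoxd1 was -0.36 (SE 0.10, FDR 0.0183). Of the 15 members at the FDR alone, 11 passed it with each mouse left out in turn, and Hoxa11, Hoxc4, Hoxd3 and Hoxd10 did not, with highest FDRs of 0.0699, 0.079, 0.0697 and 0.0882. Without MO5 the FDR was 0.0701 for Hoxc4 and 0.0619 for Hoxd3, and without WO4 it was 0.0638 for Hoxd3. Within batch 1, 10 of the 15 passed the FDR, and within batch 2 Hoxb13 alone did.

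Noncoding RNAs of the clusters were read beside the genes. Hotair, a long noncoding RNA, lies at chr15:102944062-102947730 between Hoxc12 and Hoxc11. Its log2 levels were 0.90, 1.06 and 1.13 in WY, 1.17, 0.76 and 1.05 in MY, 0.16, 0.20, 0.29, 0.93 and 0.25 in WO, and 1.12, 1.01, 0.93, 0.99 and 0.98 in MO. WO4 was the highest WO mouse and lay just under the lowest MO mouse, while the other WO mice were below every other mouse. Hotair rose by a log2 difference of 0.64 between WO and MO (SE 0.13, FDR 0.00421). Of 17 listed noncoding RNAs 9 were in the table, and Hotair alone passed both thresholds. Hoxa11os, the antisense RNA that overlaps Hoxa11, passed at the FDR alone with a log2 difference of 0.30 (FDR 0.0213). The most abundant, Mir196a-1, ranged in log2 level from 2.94 in WO4 and MO5, both of batch 2, to 6.48.

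Ageing of wild-type cord was read from WY against WO, which shares WO with the comparison above. None of the 37 members passed both thresholds by limma, against 0.253% of all genes, and 10 had an unadjusted p under 0.05, 2 higher and 8 lower in WO. Hoxb13 alone passed the FDR, where 1.12% of all genes did. It was lower in all 5 WO mice than in every WY mouse, with a log2 difference of -0.33 (SE 0.05, FDR 0.031), and with batch 1 alone of -0.33 (FDR 0.0846). That call was kept in 2 of 8 fits with a mouse left out, and the FDR was 0.096 without WY1 and reached 0.131 without WY3. Hoxd10 had a log2 difference of -0.63 (FDR 0.0838), Hoxc12 of -1.11 (FDR 0.17) and Hoxc11 of -0.66 (FDR 0.182), all short of the FDR threshold. Without WY1 the count at both thresholds was still 0. Without WO4 these 3 genes passed both thresholds, and with batch 1 alone 2 did, Hoxc12 and Hoxd10. Groups did not overlap for 4 members, Hoxc4 higher in WO and Hoxa10, Hoxb13 and Hoxd10 lower, where 9.67% of all genes did not overlap. The median log2 difference was -0.05 over the members and 0.0018 over all genes. Of the lists, Aqp4 of the astrocytes fell by 0.65 and Mog of the oligodendrocytes by 0.77 on the log2 scale, and no other listed gene passed both thresholds. The young mice are all of batch 1, so a value within batch 2 does not exist.

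The course of disease in the mutant was read from MY against MO, which shares MO with the comparison of old mice. None of the 37 members passed both thresholds by limma, against 4.9% of all genes, and 6 had an unadjusted p under 0.05. At the FDR alone 5 members passed, where 25.6% of all genes did, all lower in MO, against 12.5% of all genes: Hoxa9, Hoxc10, Hoxd1, Hoxd9 and Hoxd11. Hoxd1, whose levels in every mouse are given above, was lower in all 5 MO mice than in every MY mouse, with a log2 difference of -0.55 (SE 0.11, FDR 0.00695). It reached the fold change minimum without MO4, at -0.64 on the log2 scale (FDR 0.00037), and with the mice of batch 1 alone, at -0.66 on the log2 scale (FDR 0.00107). The other 4 had log2 differences from -0.25 to -0.15, and of the 8 fits with a mouse left out Hoxa9 passed the FDR in 1, Hoxc10 in 2, Hoxd9 in 2 and Hoxd11 in 4, with highest FDRs of 0.164, 0.136, 0.12 and 0.129. Without MO5 the FDR was 0.0778 for Hoxa9 and 0.0604 for Hoxd9. Of the 7 caudal genes higher in MO than in WO, Hoxd11 alone passed the FDR between MY and MO, with a log2 difference of -0.25 (FDR 0.0316). The median log2 difference was -0.06 over the members and 0.0047 over all genes.

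Before symptoms, WY against MY gave no call among the members. None of the 37 passed the FDR by limma at either rule, against 0.0055% of all genes at both rules, and 2 had an unadjusted p under 0.05, both lower in MY. These were Hoxc9, with a log2 difference of -0.22, and Hoxa9, with a log2 difference of -0.14. The smallest FDR of any member was 0.576. The median log2 difference was -0.02 over the members and -0.0025 over all genes. With 3 mice a group a p that misses the threshold does not show that the levels were the same.

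Whether age acted differently in the strains was tested as the difference of the age effects, MO minus MY less WO minus WY, in a fit of all 16 mice. None of the 37 members passed both thresholds by limma, against 5.61% of all genes, and 8 had an unadjusted p under 0.05. At the FDR alone 2 passed, where 17.7% of all genes did. Hoxc13 had a log2 difference of differences of 0.44 (SE 0.12, FDR 0.0254), with a mean log2 level of 0.55 in WY, 0.11 in WO and 0.68 in both MY and MO. Under quantile normalization its FDR was 0.0687. Hoxd1 had a log2 difference of differences of -0.44 (SE 0.14, FDR 0.0397), with a mean log2 level of 1.02 in WY, 0.91 in WO, 1.11 in MY and 0.55 in MO. The FDR was kept in 13 of 16 fits with a mouse left out for Hoxc13 and in 4 of 16 for Hoxd1. Without WY1 it was 0.0603 for Hoxc13 and 0.0678 for Hoxd1, and for Hoxd1 it was also 0.0577 without MO5 and 0.0536 without WO4. Without WO4, Hoxc11 and Hoxc12 passed both thresholds, and without MY2 Hoxb13 did. With every mouse the log2 difference of differences was 1.00 for Hoxc12 (FDR 0.0813), 0.60 for Hoxc11 (FDR 0.107) and 0.47 for Hoxb13 (FDR 0.103). Hotair passed both thresholds, with a log2 difference of differences of 0.68 (SE 0.20, FDR 0.0327). The median over the members was 0.00 on the log2 scale, and 0.0073 over all genes.

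The genes that work with or above the Hox genes were read as lists. The TALE cofactors, homeodomain proteins that bind DNA beside Hox proteins, were all 9 in the table with Meis3 the most abundant, and none passed both thresholds by limma between WO and MO (3 at an unadjusted p under 0.05), with 1 higher and 2 lower in MO at the FDR alone. The 20 Polycomb and trithorax genes, which keep Hox chromatin silent or active, were all in the table with Phc2 the most abundant, and none passed both thresholds by limma (5 at an unadjusted p under 0.05), with 2 higher at the FDR alone. Of 18 axial regulators 13 were in the table, with Gdf11 the most abundant. Egr2, a regulator of hindbrain segments that is also a gene of myeloid cells, rose by 0.82 on the log2 scale (FDR 6.97e-05). Of the 10 motor column genes, with Etv4 the most abundant, Runx1, a gene of motor pools and myeloid cells, rose by a log2 difference of 0.79 (FDR 9.67e-05). Between MY and MO, Egr2 and Runx1 also passed both thresholds, with log2 differences of 0.74 for Egr2 and 0.77 for Runx1. The microglia sums given above moved in the same direction, and their part in this was not tested.

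Promoters were read to show the sequence at the start of caudal members. RefSeq promoters of GRCm38.p6 were found for 20 of the 37 members, as 22 sequences, and not for Hoxb13, Hoxc11, Hoxc12 and Hoxc13. The motif searched was TTTATG, a core bound by CDX factors, regulators of trunk Hox genes, on both strands (CATAAA on the other). It was in 5 of the 22 sequences (22.7%) and in 11.9% of all 32851 promoters, and their median GC content was 57.7% and 52.7%. The sequences of Hoxa11 (chr6:52245761-52246060, minus strand) and Hoxd11 (chr2:74679308-74679607, plus strand, with a motif match in capitals), genes higher in MO than in WO at the FDR alone, are given 5′ to 3′.
Hoxa11: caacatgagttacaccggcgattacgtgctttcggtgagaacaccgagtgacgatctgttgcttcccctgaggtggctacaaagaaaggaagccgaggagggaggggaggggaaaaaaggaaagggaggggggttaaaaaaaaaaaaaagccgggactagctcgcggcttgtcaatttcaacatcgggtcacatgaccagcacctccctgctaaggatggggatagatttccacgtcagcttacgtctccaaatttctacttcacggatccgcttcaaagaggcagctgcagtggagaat
Hoxd11: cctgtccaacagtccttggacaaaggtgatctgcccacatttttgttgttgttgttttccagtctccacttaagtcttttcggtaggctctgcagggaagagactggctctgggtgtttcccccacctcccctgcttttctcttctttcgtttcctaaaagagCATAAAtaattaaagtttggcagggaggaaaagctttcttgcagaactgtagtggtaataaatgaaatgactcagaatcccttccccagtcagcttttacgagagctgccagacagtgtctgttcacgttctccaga
Such a match is a description of the letters and not a site. The Hoxa11 window holds no match and the Hoxd11 window 1, and the other Hoxd11 promoter of the table, at chr2:74682073-74682372, holds none.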

How the data were processed

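RNA of 16 spinal cords was sequenced after TRIzol extraction and stranded mRNA library preparation (TruSeq). Per the submitters' processing notes and the study's methods, the authors used Trimmomatic for cleaning, TopHat for alignment to the mm10 build and Cufflinks for gene levels, and genes with an FPKM of 0 in many mice were removed. The deposited values are log2(1 + FPKM), which the authors corrected for the 2 batches with parametric ComBat. Tool versions, the gene annotation and the covariates of ComBat are not given in the sources used here. The study lists fragment totals per library, not used here. The table holds no counts, so the depth behind a gene is unknown and no counting interval is given. Every one of its 16 sample columns was used, with 0 unused. Hoxa13 and Hoxd12 are not analysed here. A further member and some listed genes are counted but not described.

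Groups were compared with limma 3.58.1 in R 4.3.3 (two-sided; lmFit, then eBayes with its defaults), fitting the mice of each comparison, over all 18167 genes, with p adjusted by Benjamini-Hochberg (FDR). A call needed an FDR of 0.05 or less and a change of 1.5-fold or more. The difference of age effects was a contrast in a fit of the 4 groups. The procedure was tested on simulated data. Figures were drawn with matplotlib 3.10.9 and NumPy 2.4.6 in Python 3.11.15. Positions are from GENCODE M21 and promoters from RefSeq.

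Values in every mouse are given for members past both thresholds in a comparison, for the most abundant and the most caudal member of each cluster, and for Hoxd1, Hoxd10 and Hoxd11, added after their values were seen. Of the lists, the count in each direction, the most abundant gene and up to 3 called members are given. The lists were Hox cofactors, axial patterning regulators, Polycomb and trithorax regulators, noncoding RNAs of the Hox clusters, motor column and pool genes, and markers of brain and hindbrain, motor neurons, neurons, dorsal horn, astrocytes, microglia, oligodendrocytes, ependymal cells, Schwann cells, dorsal root ganglion neurons, fibroblasts, skeletal muscle, cartilage and bone, blood and sex. Members and lists were chosen with earlier results of these data known. Alternatives were each batch alone, batch as a term, 1 fit of the 4 groups, a minimum mean log2 level of 1, a pseudocount of 0.1, quantile normalization, an intensity trend, the FDR alone, a block by replicate number and each mouse left out in turn.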

Additional observations from a re-analysis of the deposited data

Results flagged for a closer look

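Some mice stood far from the rest of their group, tested in groups of 5 by the gap to the nearest mouse over the range. Of 170 groups tested, 74 of them for Hox genes, 14 held such a mouse, 5 for Hox genes. Chance flags about 1 in 20 groups. The groups outside the Hox genes were of chosen rows: the noncoding RNAs, listed genes that were called or most abundant, means over paralog numbers, and Xist. Their flags therefore cannot be set against that rate. WO4 was the highest WO mouse for Hoxc12, at a log2 level of 1.386 against a median of 0.05806 in the others, for Hoxc13, at 0.4613 against 0.01926, and for Hotair, at 0.9263 against 0.2245. WO4 was the lowest WO mouse for Mir196a-1, at a log2 level of 2.943 against 5.212, and for Mbp, at 5.355 against 12.55. WO5 was the highest for Hoxd1, at a log2 level of 1.123 against 0.8626. WO1 was the highest for Isl2, at 1.551 against 1.437, and WO3 for Mylpf, at 1.991 against 1.527, both log2 levels. MO5 was the highest MO mouse for Hoxa10, at a log2 level of 3.548 against 3.206, and for Xist, at 3.21 against 0.2374, and the lowest for Ddx3y, at 1.953 against 4.366. MO3 was the highest for Hoxb3, at a log2 level of 3.064 against 2.981, and for Egr2, at 1.228 against 0.8913. MO1 was the lowest for Hba-a1, at a log2 level of 3.6 against 5.894.

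The age effect differed between the strains at the FDR alone for Hoxc13, by 0.4379 on the log2 scale (FDR 0.0254), and for Hoxd1, by -0.443 on the log2 scale (FDR 0.0397).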

How the results depend on the processing

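The alternatives were run for the genes that passed the FDR in a comparison, and none of these reversed its direction there. Of 417 fits of them under alternatives 306 passed the FDR again and 111 did not. Of the 15 between WO and MO, 10 passed it with batch 1 alone (not Hoxa3, Hoxa6, Hoxa11, Hoxb5 or Hoxd3), 1 with batch 2 alone (Hoxb13) and 13 with quantile normalization (not Hoxa11 or Hoxd11). Of the 5 between MY and MO, 1 passed it in the fit of the 4 groups (Hoxd1), 2 with batch as a term and 3 with a pseudocount of 0.1. Hoxb13 between WY and WO missed it with batch 1 alone and in the fit of the 4 groups. With batch 2 alone Hoxc11 (log2 difference 0.64, FDR 0.166) and Hoxc12 (log2 difference 0.65, FDR 0.363) lost their call. A pseudocount of 0.1 moved Hoxb13 between WY and WO to a log2 difference of -1.46, Hoxd1 to -0.82 between WO and MO and to -1.19 between MY and MO, Hoxa11 to 0.42 and Hoxd11 to 0.89 between WO and MO, and Hoxd11 to -0.38 between MY and MO, and the differences of age effects of Hoxc13 to 1.85 and of Hoxd1 to -0.98. Between WO and MO, 3 members passed both thresholds. The count was 5 with batch 1 alone, 1 with batch 2 alone, 6 with a pseudocount of 0.1 and 15 at the FDR alone. With each mouse left out it was 3 to 4. The minimum mean of 1 kept 30 of the 37 members, left Hoxa11, Hoxb13, Hoxc13 and Hoxd1 untested, and gave 2 (Hoxc11 and Hoxc12).

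Between WY and WO the count of 0 became 2 with batch 1 alone, 1 with batch as a term, 1 with a pseudocount of 0.1, 1 at the FDR alone, and 0 to 3 with a mouse left out, 3 without WO4. Between MY and MO the count of 0 became 1 (Hoxd1) with batch 1 alone, with batch as a term, with a pseudocount of 0.1 or with quantile normalization, 5 at the FDR alone, and 0 to 1 with a mouse left out. For the difference of age effects the count of 0 became 1 with batch 1 alone, 3 with a pseudocount of 0.1, 2 at the FDR alone, and 0 to 2 with a mouse left out. Between WY and MY it was 0 to 0 with a mouse left out. The cause of these shifts was not tested. The mean of paralogs 10 to 13 was higher in MO than in WO by 0.41 on the log2 scale, by 1.083 with a pseudocount of 0.1, and by 0.3649 to 0.4909 with a mouse left out. Its alternatives were chosen after seeing the data. Quantile normalization moved the median of a mouse by at most 0.0261.

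Replicate numbers could pair mice. Over all genes, after each gene's group mean was taken out, the correlation of mice with the same number ran from -0.20 to -0.02 between WY and MY (3 pairs), from -0.13 to 0.38 between WY and WO (3 pairs), from -0.21 to 0.09 for the 5 pairs of WO and MO, and from 0.09 to 0.18 for the 3 pairs of MY and MO. In no comparison was it above 0.1 in every pair. The median of same-number pairs was -0.10 between WY and MY, against 0.06 for pairs of other numbers. It was 0.19 against -0.04 between WY and WO, 0.03 against 0.003 between WO and MO, and 0.15 against -0.03 between MY and MO. Between MY and MO each same-number pair was above every other pair, of which the highest was at 0.07. With so few pairs these values cannot settle whether the numbers pair the mice. With the numbers as a block Hoxa4, Hoxb5, Hoxc4, Hoxd3 and Hoxd10 missed the FDR between WO and MO, Hoxa9 and Hoxd11 between MY and MO, and Hoxb13 between WY and WO. With this block the count was 0 between WY and MY, 2 between WY and WO (Hoxc11 and Hoxd10), 3 between WO and MO, and 1 (Hoxd1) for MY against MO. The study lists a fragment total for each library, not used here. The table holds no counts, so the depth behind a single gene is unknown.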
